A study of Mus musculus with 3 samples.

Results

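Endothelial-marker wells were picked out of 3 single-well RNA-seq libraries of mouse heart cells as the wells that carried several capillary endothelial transcripts at once. A well was kept with at least 1000 counts and 300 detected genes. It became a member when at least 5 of the 10 genes Pecam1, Cdh5, Kdr, Tie1, Tek, Egfl7, Ly6c1, Gpihbp1, Emcn and Flt1 each reached 20 CPM. CPM is a gene's counts per 1000000 counts of nuclear-encoded mouse genes in the same wells. Wells were left out when 4 macrophage genes (Lyz2, C1qa, C1qb, C1qc) or 4 fibroblast genes (Dcn, Col1a1, Col3a1, Lum) together reached 1000 CPM. Wells with 2 or more of the endocardial genes Npr3, Vwf and Cytl1 at 20 CPM were also left out. The rule found 752 of 3376 kept wells, which were 288 of 1225 wells on day 1, 241 of 1059 on day 2 and 223 of 1092 on day 3.

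Capillary endothelial cells line the smallest vessels of the heart and outnumber most other non-muscle cells there. Their membranes hold VEGF receptors and angiopoietin receptors, which keep the vessels alive and set their growth, and their junctions are built on VE-cadherin and PECAM-1. In the heart they also move fatty acids from blood to muscle: GPIHBP1 anchors lipoprotein lipase on the luminal surface, and CD36 and FABP4 take up and carry what the lipase frees.

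The libraries were made on the iCELL8 platform, which dispenses cells into nanowells and images each well for a live nucleus stain before reverse transcription. Each day was 1 library of hearts of mice given tamoxifen, and the labels call the material adult cardiomyocytes. Days 1 and 2 carry the genotype labels D1_INO80_OE and D2_INO80_OE. The day 3 library carries D3_INO80_OE and D3_Ctrl together, and no label says which well belongs to which. The series title gives the strain as Myh6-MCM;Ino80fl/fl, in which a tamoxifen-inducible Cre (MerCreMer) is driven by the cardiomyocyte promoter Myh6 and Ino80 carries loxP sites. The labels do not say how a floxed Ino80 and the genotype INO80_OE relate. Ino80 is the ATPase of a chromatin remodelling complex. A Myh6-driven Cre is active in cardiomyocytes and not in endothelial cells. The design names days of Ino80 induction, and its day 0 was not analysed here. With 1 library per day there were no replicates and no tests. A difference between days compares 3 libraries, not conditions, and every interval given covers counting error only.

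Ino80 reached 1000 CPM in 81.9% of endothelial-marker wells on day 1 and 97.1% on day 2, against 88.2% and 97.1% of all other kept wells. The pooled Ino80 level in endothelial-marker wells was 2470 CPM on day 1, 4552 CPM on day 2 and 1689 CPM on day 3, against 2591, 4726 and 1066 CPM in all other kept wells. On day 3 the wells fell into separate low and high ranges. Of the 223 endothelial-marker wells, 133 had 1000 CPM or more (59.6%, exact 95% interval 52.9 to 66.1), 74 had under 100 CPM and 16 lay between. Among the 869 other wells, 363 had 1000 CPM or more (41.8%, 38.5 to 45.1) and 457 had under 100 CPM. The share of wells at 1000 CPM or more was thus smaller in endothelial-marker wells than in other wells on day 1 and larger on day 3. How this share relates to the day 3 values given below, and its part in them, was not tested.

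**Figure D1:**
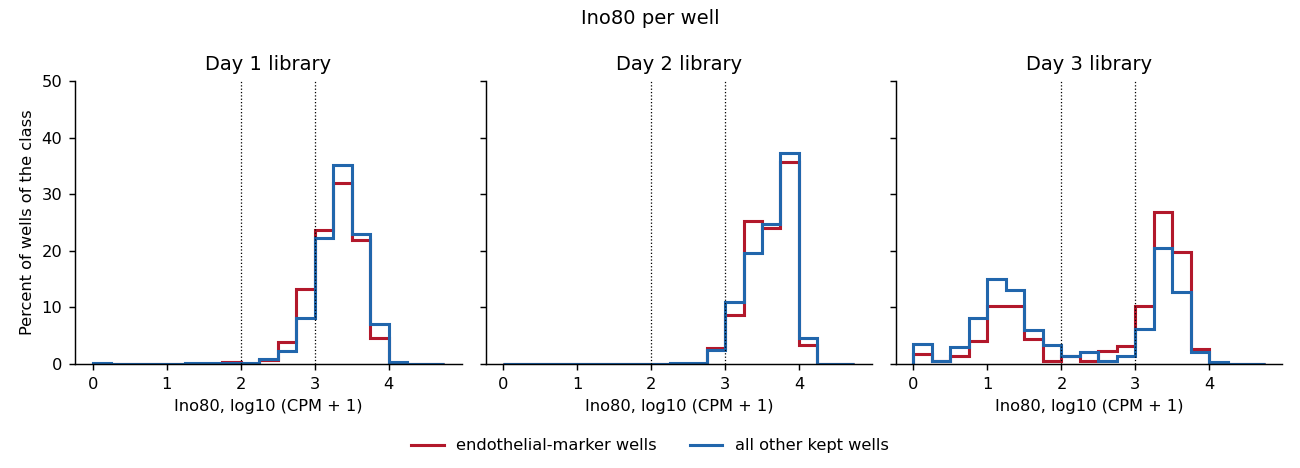
Share of wells (percent of the class, vertical axis) by Ino80 level (log10 of CPM plus 1, horizontal axis) in endothelial-marker wells and all other kept wells of the 3 libraries, with dotted lines at 100 and 1000 CPM. On day 3 both classes have a low and a high range, and 59.6% of endothelial-marker wells against 41.8% of other wells reach 1000 CPM.

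The label of a capillary endothelial cell held in part. Endothelial genes that the rule did not use were higher in these wells: 20 other capillary genes summed to a median of 4621, 3562 and 3481 CPM per well on days 1, 2 and 3, against 1362, 1263 and 1257 CPM in other wells. Cardiomyocyte transcripts were not lower to a matching degree. The summed level of 14 ventricular cardiomyocyte genes had a median of 111807, 120545 and 87763 CPM in endothelial-marker wells, against 116824, 123224 and 129850 CPM in other wells. Myh6, the main cardiac myosin of adult mouse ventricle, had 11997, 11602 and 8849 CPM, against 12569, 11905 and 11875 CPM. Wells over the limit of the macrophage gene sum held Myh6 at 11415, 10143 and 10635 CPM as well. By its median, the sum of the 14 genes was thus slightly lower in endothelial-marker wells on days 1 and 2 and further below on day 3. The classes overlapped widely on day 3. The middle 50% of wells ran from 78090 to 133742 CPM in endothelial-marker wells and from 85670 to 147896 CPM in other wells. Over pooled counts the 14 genes summed to 106481 CPM on day 3, against 123461 CPM in other wells. Of the 14 genes, 3, 2 and 2 were higher in endothelial-marker wells than in other wells on days 1, 2 and 3, and none was 2-fold lower. Their median log2 ratios were close to even, at −0.03, −0.03 and −0.18. The share of all genes that were higher in any amount was not counted, so nothing is read from the count. Over all kept wells, the sum was also lower with 7 rule genes than with 2, but it did not fall at every step. Its median on day 1 was 120129 CPM with 2 rule genes, 112516 CPM with 5 and 104481 CPM with 7, and 116851 CPM with 0. On day 2 it was 126778, 121908 and 111545 CPM with 2, 5 and 7, and 121687 CPM with 8. On day 3 it was 125100, 112907 and 78626 CPM, and 97972 CPM with 4. The data show no class of wells with endothelial RNA in place of cardiomyocyte RNA, and the wells are therefore named here by the rule that chose them.

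No gap set the members apart from the rest. The count of rule genes per well had a single peak in each library, and wells with exactly 5 made up 42.4%, 44.4% and 41.3% of the members on days 1, 2 and 3. Members just inside the limit, with 5 rule genes, had a median sum of the 20 other capillary genes of 3643, 3328 and 2308 CPM. Wells just outside it, with 4 rule genes and the same exclusions met, had 3131, 2764 and 2098 CPM. At the far end, 79, 56 and 54 wells held 7 or more of the rule genes.

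**Figure D2:**
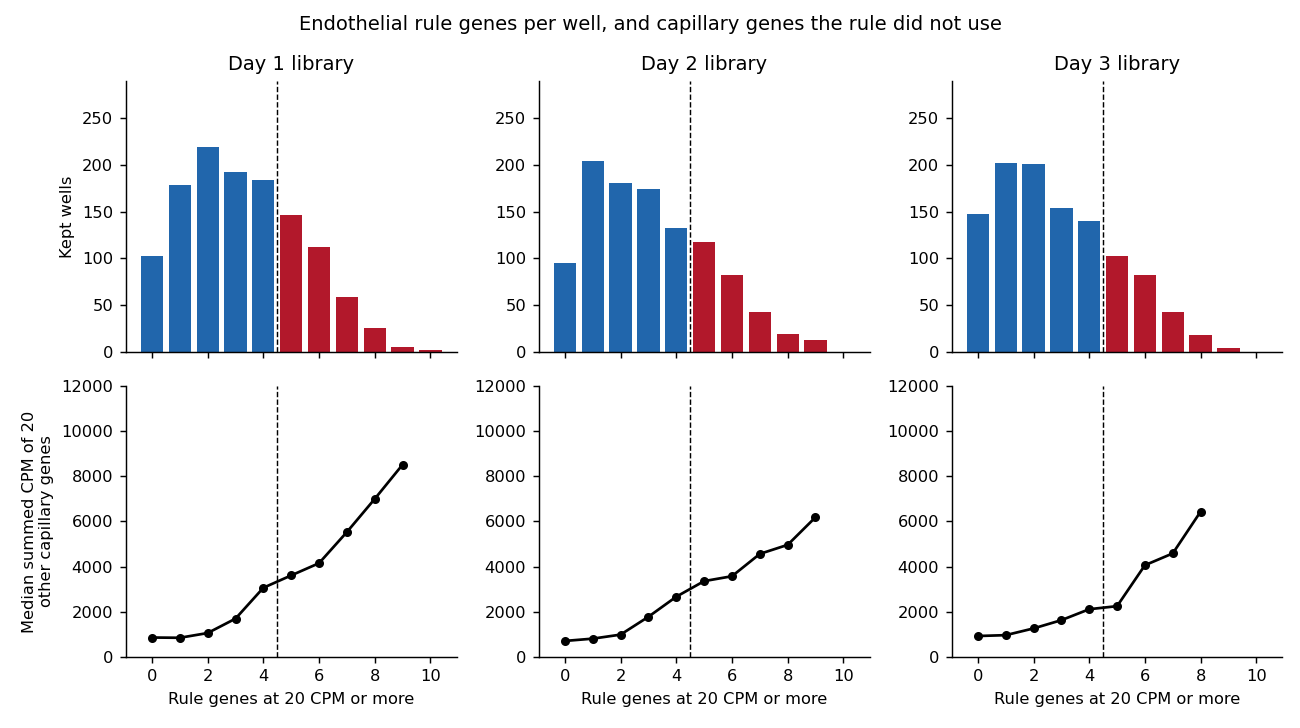
Upper row, number of kept wells (vertical axis) by how many of the 10 rule genes reached 20 CPM (horizontal axis) in each library, with wells at 5 or more in colour before exclusions. Lower row, the median summed CPM of 20 capillary genes outside the rule for the same wells, which on day 1 climbs from 1 to 9 rule genes (843 CPM at 1, 3608 CPM at 5, 8517 CPM at 9) with no step at 5.

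Depth bears on who is a member, because 20 CPM was worth only 3.33, 3.90 and 4.90 reads in the median endothelial-marker well of days 1, 2 and 3. The endothelial-marker wells made up 23.5% (exact 95% interval 21.2 to 26.0), 22.8% (20.3 to 25.4) and 20.4% (18.1 to 22.9) of kept wells. After each well was thinned to 100000 nuclear counts, which left out 269, 149 and 103 shallower wells, the shares were 24.7%, 25.4% and 22.1%. Among those same wells the unthinned shares were 22.1%, 21.98% and 19.8%. Day 3 had the lowest share in each of these counts. Endothelial-marker wells were somewhat shallower than the rest, with median counts of 287424, 324648 and 323489, against 328846, 356944 and 380269 in other wells. Their median number of genes was 3182, 3529 and 3760, against 3290, 3668 and 3929. The mitochondrial share of counts was 39.9%, 41.4% and 21.1%, against 40.0%, 42.5% and 21.2%, so it differed between libraries and hardly between the classes. The deposited tables held 452070922 to 487461107 counts per library, and 18 of 3394 wells were below the minimum depth. Libraries shared 247 to 278 barcodes in pairs and 67 in all.

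Endothelial transcripts were also counted in wells of another class. Ly6c1 reached 20 CPM in 97.9%, 96.3% and 96.4% of endothelial-marker wells, against 64.1%, 54.9% and 37.5% of macrophage-marker wells (the wells over the limit of the macrophage gene sum), whose median depths were 307416, 355711 and 398999 counts. After thinning to 30000 counts, Ly6c1 was detected in 94.1%, 92.9% and 90.5% of endothelial-marker wells and in 58.9%, 44.4% and 38.1% of the macrophage-marker wells. A count of Ly6c1 or Gpihbp1 alone therefore did not mark a well, and the rule rests on several genes at once.

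The 10 rule genes were chosen for being high, so their levels are given as a description. Ly6c1 and Gpihbp1 are GPI-anchored proteins of the Ly6 family and lie on the same chromosome, at chr15:75044018-75048830 on the minus strand and chr15:75596628-75599481 on the plus strand (mm10). Gpihbp1 had 1293, 821 and 1123 CPM in endothelial-marker wells on days 1, 2 and 3, against 362, 213 and 210 CPM in other wells. Ly6c1 had 1439, 1231 and 867 CPM, against 446, 346 and 186 CPM. Within the endothelial-marker wells Gpihbp1 was lowest on day 2 and Ly6c1 lowest on day 3. The spread between wells was wide: the middle 50% of endothelial-marker wells ran from 409 to 1917 CPM of Gpihbp1 on day 1, from 111 to 1145 on day 2 and from 285 to 1710 on day 3.

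Among the receptors, Kdr (VEGF receptor 2, which carries most VEGF signalling) had 93.6, 136 and 118 CPM in endothelial-marker wells, against 18.1, 38.6 and 27.9 CPM in other wells. Flt1 (VEGF receptor 1, which binds VEGF and signals weakly) had 265, 241 and 198 CPM, against 63.4, 70.0 and 33.4 CPM. Kdr was thus lowest on day 1 and Flt1 lowest on day 3 in the endothelial-marker wells, and the other wells were lower in each library. Tek (Tie2, the angiopoietin receptor) had 64.9, 81.0 and 52.7 CPM, against 7.38, 14.0 and 13.9 CPM. Its co-receptor Tie1 had 30.1, 23.6 and 22.6 CPM, against 6.92, 7.06 and 6.02 CPM. Both were at 0 in the median endothelial-marker well of every library, and Tek reached 20 CPM in 31.2%, 34.4% and 25.6% of these wells.

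For the junction genes, Cdh5 (VE-cadherin) had 101, 75.4 and 75.6 CPM in endothelial-marker wells, against 23.9, 17.1 and 13.8 CPM in other wells. Pecam1 had 86.1, 59.0 and 51.2 CPM, against 21.3, 14.9 and 14.1 CPM. Emcn, a sialomucin of capillary and venous endothelium, had 64.4, 54.5 and 51.4 CPM, against 16.6, 11.99 and 16.7 CPM. All 3 pooled levels were highest on day 1. The share of endothelial-marker wells at 20 CPM was instead highest on day 3 for Pecam1 (46.5%, 44.4% and 48.0%). The same held for Cdh5 (58.7%, 51.0% and 60.5%), while for Emcn the share was highest on day 1 (35.8%, 28.2% and 31.4%). Egfl7, a secreted endothelial protein, had 152, 185 and 149 CPM, against 46.6, 46.7 and 34.1 CPM, but its exons overlap those of Agpat2 on the opposite strand. Whether counting used strand is not given in the sources used here, so reads of overlapping genes cannot be told apart.

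Promoters of the receptors and of Timp4, the leading gene outside the rule, are shown because ETS factors, which hold endothelial genes active, read a short GGAA core, and the ETS gene Erg was itself among the leading genes. The RefSeq tables (GRCm38.p6) gave 300 bases per start site, from 250 before it to 50 after it, for 7 of the 10 rule genes and 14 of the 20 leading genes. The windows lie at chr5:75978406-75978705 (Kdr, minus strand), chr5:147725962-147726261 (Flt1, minus), chr4:118489800-118490099 (Tie1, minus), chr4:94739039-94739338 (Tek, plus) and chr6:115252156-115252455 (Timp4, minus). Each is written 5′ to 3′ on the gene's strand, with GGAAG or its reverse complement CTTCC in capitals.
Kdr: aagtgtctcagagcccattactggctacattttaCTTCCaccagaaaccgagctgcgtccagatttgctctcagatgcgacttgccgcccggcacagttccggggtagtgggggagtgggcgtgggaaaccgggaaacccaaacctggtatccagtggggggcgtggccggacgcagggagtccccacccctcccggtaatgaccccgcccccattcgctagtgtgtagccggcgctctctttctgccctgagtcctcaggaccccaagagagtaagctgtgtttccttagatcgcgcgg
Flt1: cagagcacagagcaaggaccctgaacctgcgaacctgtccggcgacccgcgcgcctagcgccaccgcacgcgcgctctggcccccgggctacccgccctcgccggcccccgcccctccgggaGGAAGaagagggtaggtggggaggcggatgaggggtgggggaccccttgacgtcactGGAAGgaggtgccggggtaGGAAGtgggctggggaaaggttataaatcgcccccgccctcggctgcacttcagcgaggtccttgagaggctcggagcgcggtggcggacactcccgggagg
Tie1: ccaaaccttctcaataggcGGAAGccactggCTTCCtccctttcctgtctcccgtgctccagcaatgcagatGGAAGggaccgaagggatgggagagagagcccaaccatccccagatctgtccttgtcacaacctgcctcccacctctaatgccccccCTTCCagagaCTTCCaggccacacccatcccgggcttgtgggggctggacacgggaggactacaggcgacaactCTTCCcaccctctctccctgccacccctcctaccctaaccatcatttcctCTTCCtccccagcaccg
Tek: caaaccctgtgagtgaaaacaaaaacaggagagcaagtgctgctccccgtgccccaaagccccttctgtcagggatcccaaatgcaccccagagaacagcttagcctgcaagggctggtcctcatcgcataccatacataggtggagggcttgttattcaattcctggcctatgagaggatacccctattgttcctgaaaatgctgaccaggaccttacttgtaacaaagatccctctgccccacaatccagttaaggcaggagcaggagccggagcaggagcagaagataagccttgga
Timp4: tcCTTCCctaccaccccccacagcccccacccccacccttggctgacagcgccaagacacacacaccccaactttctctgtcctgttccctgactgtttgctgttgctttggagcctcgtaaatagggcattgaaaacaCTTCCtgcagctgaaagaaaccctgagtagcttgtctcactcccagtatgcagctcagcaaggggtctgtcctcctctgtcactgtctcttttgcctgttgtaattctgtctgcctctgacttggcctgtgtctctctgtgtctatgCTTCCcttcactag
The Tie1 window held 7 of these motifs, Flt1 and Timp4 held 3 each, Kdr held 1 and Tek none. Only the longer GGAAG was counted. The shorter GGAA core, or TTCC on the other strand, also occurs in lower case, as in the Kdr and Tek windows. Of 18 start sites of leading genes, 15 held at least 1 (83.3%), and 8 of 10 start sites of rule genes did (80%). Over all 32851 start sites in the table the share was 71.4%, so the presence of the letters is common and marks no site. The mean number of motifs per window was 1.35 over all start sites, 2.5 for rule genes and 1.83 for leading genes. The difference in means was not tested.

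Outside the rule, 20 leading genes were ranked by the smallest log2 ratio of endothelial-marker wells over other wells in any of the 3 libraries (5 CPM added to both). Genes with at least 10 CPM in the endothelial-marker wells that stood 4-fold or more above the other wells numbered 5 of 6397 on day 1 (0.0782%), 5 of 6647 on day 2 (0.0752%) and 16 of 6199 on day 3 (0.258%). At 2-fold, with a mean of 10 CPM or more, 2.33%, 2.29% and 2.7% of genes were higher in endothelial-marker wells on the 3 days and 1.98%, 1.89% and 1.04% were lower. These shares include rule genes, and since the wells were chosen by expression nothing is read from them. Timp4, an inhibitor of matrix metalloproteinases, led with 386, 214 and 196 CPM in endothelial-marker wells on days 1, 2 and 3, against 93.9, 61.5 and 43.0 CPM in other wells. Its exons overlap Syn2 on the opposite strand. Rbp7, a retinol-binding protein of microvascular endothelium, had 677, 463 and 551 CPM, against 204, 119 and 110 CPM. Both were highest on day 1 in either class.

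A fatty acid carrier, a water channel and regulators were also in the list. Fabp4, the carrier, had 628, 548 and 581 CPM in endothelial-marker wells, against 170, 187 and 123 CPM in other wells, and reached 20 CPM in 96.9%, 97.9% and 97.3% of endothelial-marker wells. Its share in macrophage-marker wells was 62.0%, 69.5% and 60.9%, so Fabp4 counts alone did not mark a well either. Rgcc, a cell cycle regulator that is high in heart capillaries, had 430, 309 and 240 CPM, against 132, 106 and 68.3 CPM. Depp1, a target of FOXO factors, had 422, 338 and 349 CPM, against 131, 97.7 and 95.3 CPM. The water channel Aqp1 had 81.2, 45.5 and 33.5 CPM, against 21.2, 15.2 and 7.42 CPM. In both classes the pooled levels of Rgcc and Aqp1 were highest on day 1 and lowest on day 3. The median of Rgcc per well was instead lowest on day 2 in both classes. It was 346, 209.7 and 222 CPM in endothelial-marker wells, against 49.8, 26.5 and 27.2 CPM in other wells.

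Surface and signalling genes filled much of the remaining list. The adhesion receptor Adgrf5 had 331, 331 and 253 CPM in endothelial-marker wells, against 100, 131 and 69.6 CPM in other wells. Notch4, a Notch receptor of endothelium, had 46.6, 33.8 and 51.4 CPM, against 9.08, 10.8 and 13.7 CPM. The caveola protein gene Cav1 had 94.3, 95.5 and 76.1 CPM, against 27.0, 32.6 and 25.4 CPM. The ETS factor gene Erg had 36.9, 43.0 and 37.7 CPM, against 12.6, 13.1 and 9.04 CPM. Esam, an adhesion molecule of endothelial junctions, had 122, 113 and 99.02 CPM, against 49.1, 38.1 and 30.2 CPM. Erg varied little between days and had a count in only 29.2%, 34.0% and 32.3% of the endothelial-marker wells. The other leading genes were Mmrn2, Gngt2, AW112010, Tspan13, Ecscr, Adgrl4, Apold1, Gimap6 and Gng11.

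**Figure D3:**
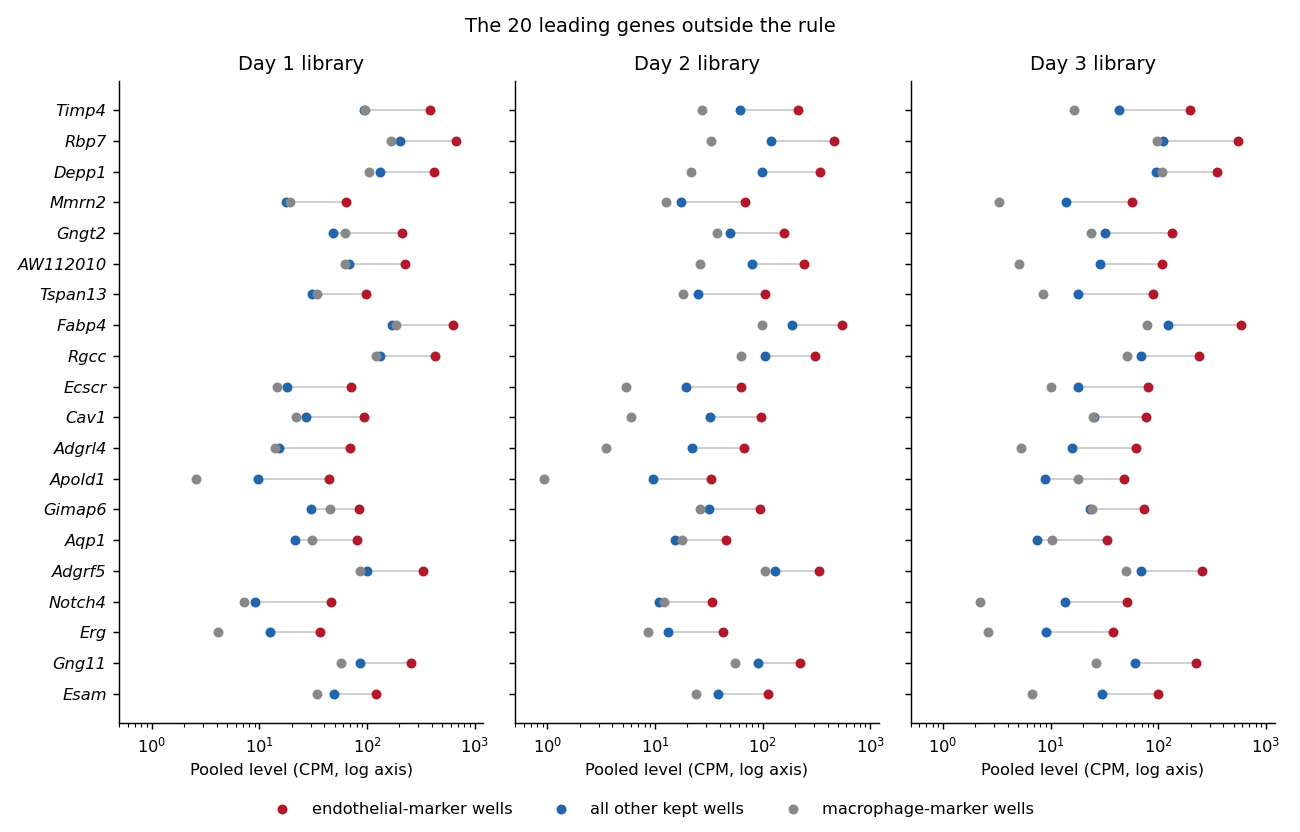
Pooled level (CPM, log axis) of the 20 leading genes in endothelial-marker wells, all other kept wells and macrophage-marker wells of each library. The endothelial-marker wells lie to the right for every gene, as the choice of genes requires, for example Timp4 at 386, 214 and 196 CPM, and the macrophage-marker wells lie near or left of the other wells.

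Gene lists filled in the picture of the wells. Genes of a mean level of 5 CPM or more in the classes compared count as measured, and of all such genes 2.25%, 2.46% and 2.87% were 2-fold or more higher in endothelial-marker wells on days 1, 2 and 3, with median log2 ratios of 0.01, −0.01 and 0.05. Of the capillary identity list, which holds 2 rule genes, 14 of 20 measured genes, 15 of 22 and 15 of 21 were 2-fold higher, with medians of 1.36, 1.16 and 1.47. Its members included Car4, a carbonic anhydrase of capillaries, at 46.5, 34.3 and 32.8 CPM, against 15.7, 12.9 and 5.99 CPM. Cxcl12, a chemokine, had 126, 146 and 118 CPM, against 33.7, 73.3 and 33.0 CPM. Of the endothelial junction list, which also holds 2 rule genes, 8 of 17, 8 of 19 and 8 of 16 were 2-fold higher. Its medians were 0.82, 0.82 and 1.05. Cldn5, the main claudin of endothelial tight junctions, was low, at 6.42, 1.75 and 5.10 CPM, and 60.4% of its day 1 counts came from 1 well.

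Transcription factor genes of endothelium were 2-fold higher in 7 of 19, 10 of 20 and 7 of 16 cases, with medians of 0.81, 1.00 and 0.94. Klf2, a factor induced by flow, had 75.8, 81.7 and 60.7 CPM in endothelial-marker wells, against 41.0, 38.0 and 21.9 CPM in other wells. Tcf15, which with Meox2 drives fatty acid uptake genes in heart endothelium, had 21.6, 21.3 and 9.80 CPM, against 9.01, 7.85 and 2.93 CPM. In the VEGF and angiopoietin list, of which 4 genes are in the rule, 5 of 13, 5 of 13 and 7 of 13 were 2-fold higher. Those 4 were 2-fold higher in each library, as the choice of wells favours, and are most of the 5 on days 1 and 2. The ligand gene Vegfa was lower, with 85.3, 130 and 101 CPM in endothelial-marker wells, against 135, 182 and 117 CPM in other wells.

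The fatty acid list, which holds 1 rule gene, was mixed. Of its genes 4 of 22, 5 of 23 and 4 of 22 were 2-fold higher, with medians of 0.27, 0.35 and 0.58. Cd36, the fatty acid translocase, had 730, 667 and 821 CPM, against 386, 321 and 553 CPM. Lpl, the lipase that muscle makes and Gpihbp1 anchors, had 4575, 4041 and 4912 CPM, against 4339, 3906 and 5943 CPM. The Lpl level was slightly higher than in other wells on days 1 and 2 and lower on day 3, when its median per well was 3267 CPM, against 5229.5 CPM.

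Arterial genes were 2-fold higher in 1 of 9, 4 of 8 and 2 of 6 cases, and venous genes in 0 of 11, 0 of 10 and 1 of 7, with arterial medians of 0.50, 0.95 and 0.60 and venous medians of 0.11, −0.08 and −0.25. Wells left out by the endocardial genes offer the closest comparison, though they numbered only 16 on day 1, 3 on day 2 and 10 on day 3. Over the 16 wells of day 1, capillary identity genes were higher in endothelial-marker wells in 19 of 20 cases with a median log2 ratio of 1.60, and over the 10 wells of day 3 in 18 of 21 with 0.95. Venous genes had medians of −1.76 and −1.24 and arterial genes of −1.11 and −1.45 in the same comparisons, against 0.10 and 0.07 over all genes. These wells were set apart by expression, so the values describe the split.

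Markers of other cells were present at levels that varied by day and list. The macrophage list summed to 80.9, 96.1 and 111 CPM in endothelial-marker wells, against 777, 901 and 381 CPM in other wells, and the fibroblast list to 330, 298 and 138 CPM, against 1724, 1337 and 607 CPM. These are low by the rule. Pericyte genes, which the rule did not use, were 2-fold higher in 0 of 8 cases on days 1 and 2 and in 3 of 7 on day 3. Their sum was above that of other wells in each library, at 551, 740.1 and 476 CPM, against 448, 627 and 286 CPM. Atrial genes summed to 3223, 150.2 and 1362 CPM, against 4948, 178 and 1583 CPM. The pericyte gene Rgs5 had 294, 424 and 178 CPM, against 192, 291 and 81.2 CPM. Haemoglobin transcripts summed to 741, 1202 and 2580 CPM, against 961, 2297 and 532 CPM, and 5 wells gave 96.4%, 67.1% and 86.3% of the endothelial-marker wells' haemoglobin counts. The part of red cell and pericyte RNA in the results was not tested. Gene counts over only the wells with under 100 CPM of haemoglobin are given further below.

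In the day 2 comparison with day 1, 6569 genes of mean CPM 10 or more were compared within endothelial-marker wells. Of these, 503 were 2-fold or more higher on day 2 (7.66%) and 249 were 2-fold or more lower (3.79%), with a median log2 ratio of 0.10 over all of them. Scaled over all mouse genes with mitochondrial ones included, 347 were higher and 119 lower. The genes named next were the furthest apart among those counted in many wells. They were picked for their ratios in endothelial-marker wells, so a smaller ratio in other wells is a description.

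Tfrc, the transferrin receptor that brings iron into cells, had 6.50, 71.7 and 69.9 CPM in endothelial-marker wells on days 1, 2 and 3, and 13.0, 57.4 and 58.7 CPM in other wells. Its log2 ratio of day 2 over day 1 was 3.46 (95% interval 3.32 to 3.61), against 2.15 in other wells. The share of endothelial-marker wells with a count was 58.5% on day 2, against 12.2% on day 1. Slc16a1, a lactate and ketone transporter, had 34.3, 146 and 86.9 CPM, and 53.3, 147 and 103 CPM in other wells. Srxn1, which repairs oxidised peroxiredoxins, had 28.8, 106 and 117 CPM, and 22.5, 83.7 and 89.9 CPM in other wells. Day 1 was the low library for all 3 genes in both classes.

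Lamc1, a laminin chain of basement membranes, differed more within the endothelial-marker wells. It had 12.7, 52.95 and 55.2 CPM there, and 27.5, 44.9 and 39.5 CPM in other wells, so that day 2 over day 1 was 2.06 (1.95 to 2.18), against 0.71. Single wells weighed on this value, as 28.6% of the day 1 counts came from 1 well. The rest of the 12 highest were Phf20, Chid1, Gpr107, Rrp12, Gnb4, Polr2b, Hif1an and Kcng2. Each had a smaller ratio in other wells, for example Hif1an, an inhibitor of HIF-1, with 2.25 (2.11 to 2.40), against −0.08.

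The lowest genes on day 2 included atrial muscle genes. Myl7, the atrial myosin light chain, had 904, 26.9 and 389 CPM in endothelial-marker wells, and 1438, 47.7 and 460 CPM in other wells, a log2 ratio of −5.07 (−5.15 to −5.0), against −4.92. All 5 measured atrial genes were lower in endothelial-marker wells on day 2, so the libraries differed in atrial muscle RNA, whose part in the other differences was not tested. Ednrb, the endothelin B receptor, had 46.2, 8.04 and 21.1 CPM, and 13.6, 17.7 and 6.76 CPM in other wells. Its ratio was −2.52 (−2.67 to −2.38) in endothelial-marker wells, against 0.38 in other wells. The immediate early gene Nr4a2 had 73.4, 13.8 and 18.7 CPM, and 53.5, 10.9 and 8.69 CPM in other wells. Others of the lowest were Pxmp4, Trp53inp1, Pygo1, Dhdh, Eva1b, Tmod4, Plet1os, Nppa and Myl4.

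The 86 genes that stood 2-fold above other wells in the library where they were higher were then ranked apart. That choice favours genes that moved more in endothelial-marker wells than in other wells, so the difference between the classes is a description. Of the 86 genes, 22 were higher on day 2 and 64 were lower. The highest of them were Cinp, Usp40, Cspp1, Sos1 and Gpalpp1. Further down was Abcg2, a drug efflux pump of capillaries, with 40.3, 70.1 and 84.6 CPM, and 20.1, 28.5 and 45.2 CPM in other wells. Podxl, a sialomucin of the luminal surface, had 32.4, 52.4 and 33.5 CPM, and 13.3, 18.4 and 9.84 CPM in other wells. Gimap4, a small GTPase, had 36.9, 68.8 and 37.6 CPM, and 19.2, 18.5 and 9.81 CPM in other wells. Podxl and Gimap4 were high on day 2 alone, and Abcg2 on days 2 and 3. Kdr, a rule gene by which the wells were chosen, was also in this group, at 0.54 (0.49 to 0.59), against 1.09 in other wells.

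The 10 lowest on day 2 in this group included Lims2. Lims2, an adaptor of integrin adhesions, had 293, 106 and 112 CPM in endothelial-marker wells, and 88.4, 54.7 and 27.2 CPM in other wells, a ratio of −1.47 (−1.51 to −1.43), against −0.69. Nostrin, which binds endothelial nitric oxide synthase, had 54.8, 16.7 and 22.8 CPM, and 18.6, 9.52 and 10.5 CPM in other wells. Arhgef15, a guanine nucleotide exchange factor of endothelial cells, had 47.8, 18.3 and 27.9 CPM, and 20.1, 15.6 and 6.98 CPM in other wells. Jcad, a junctional protein, had 46.2, 19.0 and 15.7 CPM, and 15.2, 10.7 and 2.98 CPM in other wells. All 4 were highest on day 1, but with 7 rule genes asked for, Jcad had the other sign. Gbp7, an interferon-induced GTPase, had 71.3, 31.8 and 49.8 CPM, and 25.5, 25.4 and 17.9 CPM in other wells.

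**Figure D4:**
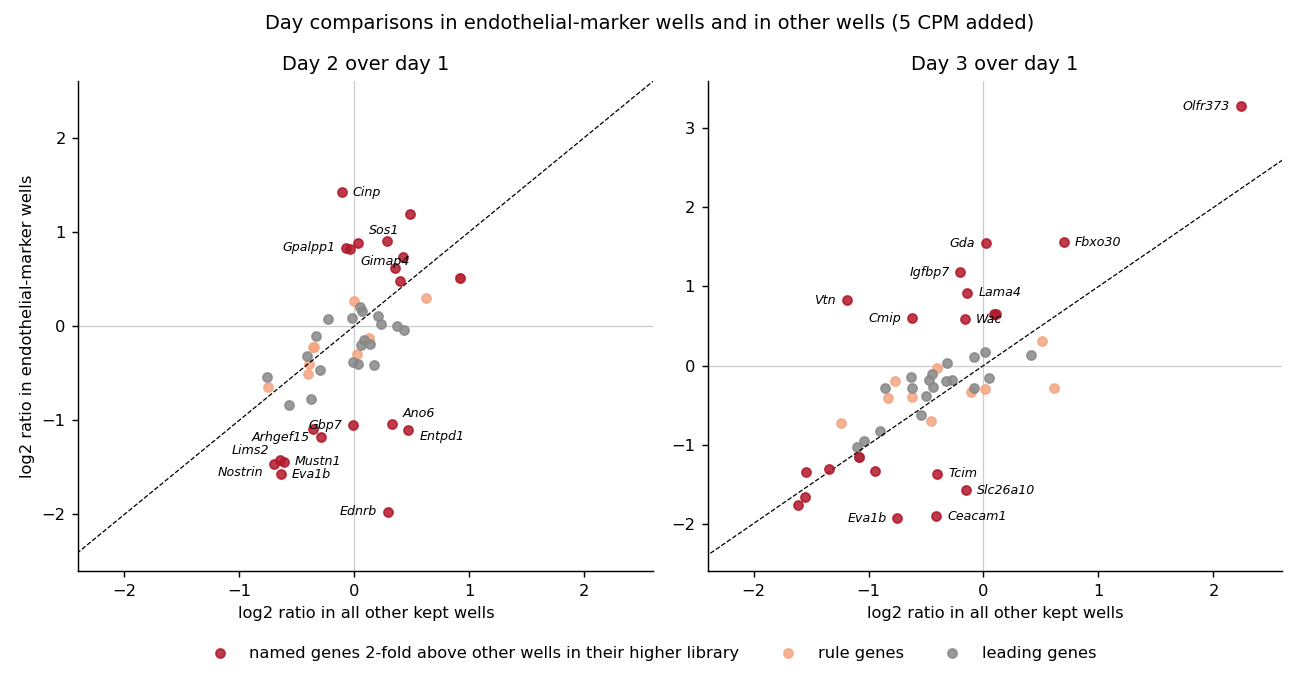
Log2 ratio of day 2 over day 1 (left) and day 3 over day 1 (right), with 5 CPM added, in endothelial-marker wells (vertical axis) and in all other kept wells (horizontal axis), for rule genes, leading genes and the named genes that stood 2-fold above other wells. Points on the dashed line had equal ratios in both classes. Ednrb on day 2 lies far below the line, with −2.52 against 0.38 on the floor scale of the text.

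By list, the day 2 comparison was read against all 8451 genes of mean CPM 5 or more, of which 57.1% were higher on day 2 in endothelial-marker wells, with a median of 0.10. By 2-fold or more, 9.9% of them were higher and 6.05% lower. In the capillary identity list 6 of 22 were higher and 16 lower, with a median of −0.35, against −0.15 in other wells. The members furthest down were Scarb1, Timp4 and Aqp1, and 0 of the 22 were 2-fold apart. Interferon response genes were lower in 16 of 20 cases, with a median of −0.52, against −0.19 in other wells. MHC class I genes were lower in 10 of 14, with −0.27, against −0.10. B2m, the light chain of class I molecules, had 348, 288 and 181 CPM in endothelial-marker wells over the 3 days, and 227, 200 and 105 CPM in other wells.

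Other lists were on the higher side on day 2. Tip cell and angiogenic genes were higher in 8 of 10, with a median of 0.62, against 0.57 in other wells. Basement membrane genes were higher in 13 of 16, with 0.39, against 0.41. Col4a1, a collagen chain of that membrane, had 198, 324 and 314 CPM in endothelial-marker wells, and 129, 188 and 191 CPM in other wells. Endothelial transcription factor genes were higher in 15 of 21, with 0.17, against −0.06 in other wells. Junction genes were evenly split, 9 higher and 9 lower of 18. The signs of these medians held under each alternative run, apart from junction genes, whose median of −0.01 changed sign under several.

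For day 3 against day 1, 6355 genes of mean CPM 10 or more were compared in endothelial-marker wells. Higher on day 3 by 2-fold or more were 467 (7.35%) and lower were 578 (9.1%), with a median of −0.10. This split depended on scaling, since the mitochondrial share was 21.1% on day 3 and 39.9% on day 1. With mitochondrial genes in the total, 775 were higher and 141 lower, and the median over genes of mean CPM 5 or more was 0.28 in place of −0.12. With median-of-ratios size factors, 550 were higher and 457 lower. Directions below are therefore relative to the nuclear-encoded total. None of the named genes changed sign under any alternative run, which their choice by the ratio in these same wells favours.

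Ankrd1 and Angptl4 were among the 12 highest. Ankrd1, a sarcomere protein induced by load, had 356, 1131 and 2435 CPM in endothelial-marker wells on days 1, 2 and 3, and 464, 1020 and 1926 CPM in other wells. Its ratio was 2.78 (2.76 to 2.80), against 2.05 in other wells. Angptl4, a secreted inhibitor of lipoprotein lipase, had 5.87, 9.82 and 97.1 CPM, and 6.14, 8.95 and 58.0 CPM in other wells, a ratio of 4.05 (3.90 to 4.20), against 3.24. Both were highest on day 3 in both classes. Lgals3 (galectin-3) had 8.13, 15.9 and 128 CPM, and 22.2, 34.8 and 105 CPM in other wells. Tfrc stood at 3.43 (3.28 to 3.58), against 2.18. Ankrd2, Olfr373, Bglap3, Mir22hg, Prr13, Ints9, Rrp12 and Tubb6 made up the rest of the 12.

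At the low end, Esr1 had 380, 356 and 48.0 CPM in endothelial-marker wells, and 433, 400 and 35.3 CPM in other wells. Esr1 encodes oestrogen receptor alpha, whose mutated ligand-binding domain is also part of MerCreMer, and reads of the gene and of such a transgene cannot be told apart in these counts. Klf4, a flow-induced factor, had 101, 40.2 and 26.0 CPM, and 53.01, 35.4 and 21.1 CPM in other wells, a ratio of −1.96 (−2.04 to −1.88), against −1.33. Igfbp5, an IGF binding protein, had 262, 174 and 44.7 CPM, and 246, 230 and 49.1 CPM in other wells. Day 3 was the lowest library for Esr1, Klf4 and Igfbp5 in both classes. Also among the 12 lowest were Gt(ROSA)26Sor, Cand2, Dcn, Zfp346, Tppp3, Ceacam1, Eva1b and Tmod4.

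The same choice left 94 genes for day 3, and Cd200 was among the highest. Cd200, an inhibitory ligand on endothelium, had 66.3, 63.9 and 107 CPM in endothelial-marker wells, and 20.6, 26.9 and 22.7 CPM in other wells, a ratio of 0.69 (0.64 to 0.75), against 0.14. Lama4, the laminin chain typical of endothelial basement membrane, had 29.7, 52.5 and 60.7 CPM, and 29.0, 56.9 and 25.8 CPM in other wells. Igfbp7 had 24.1, 33.5 and 60.9 CPM, and 25.2, 35.9 and 21.3 CPM in other wells, with exons that overlap Polr2b. All 3 had to stand 2-fold above other wells on day 3 to be in this group, so their contrast with other wells is part of the choice. The pericyte marker Vtn, in the same group, had 16.3, 17.8 and 32.8 CPM, and 33.3, 51.6 and 11.8 CPM in other wells. The part of pericyte RNA in these differences was not tested.

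The lowest on day 3 in this group included Slc9a3r2 and Ceacam1. Slc9a3r2, a scaffold of membrane proteins, had 286, 173 and 86.7 CPM, and 105, 75.3 and 32.6 CPM in other wells, a ratio of −1.72 (−1.77 to −1.68), against −1.69. Ceacam1, an adhesion molecule, had 38.6, 21.1 and 6.63 CPM, and 8.92, 5.0 and 5.49 CPM in other wells, a ratio of −2.54 (−2.69 to −2.39), against −0.70. Aqp1 stood at −1.28 (−1.35 to −1.21), against −1.52. Kcna5, a potassium channel, had 52.6, 28.8 and 11.9 CPM, and 15.2, 9.07 and 1.64 CPM in other wells. In endothelial-marker wells all 4 were highest on day 1 and lowest on day 3.

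Between day 3 and day 1, 43.5% of 8298 genes of mean CPM 5 or more were higher. By 2-fold or more, 9.3% were higher and 11.9% lower. The capillary identity list had 5 of 21 higher and 16 lower with a median of −0.34, against −0.46 in other wells. That median changed sign when mitochondrial genes were counted in the total. Rgcc, Timp4 and Ly6a were among the lower members and Sparc and Cd36 among the higher. Rule genes picked the wells of each library, so their day ratios are given as a description. By pooled level they were lower in 9 of 10, and Kdr alone was higher. The 9 included Ly6c1, and also Cdh5 and Pecam1, whose shares of wells at 20 CPM were not lower on day 3. The rule genes' median of −0.37, against −0.52 in other wells, changed sign under the same scaling. Interferon response genes were lower in 19 of 22, with a median of −0.52, against −0.92 in other wells, and this too changed sign with mitochondrial genes counted and with 7 rule genes asked for. Ifit3 stood apart, with 6.82, 6.93 and 24.5 CPM in endothelial-marker wells, and 11.6, 8.90 and 9.97 CPM in other wells. MHC class I genes were lower in 11 of 13, with −0.64, against −0.89, under every alternative run.

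Stress lists were on the higher side on day 3 under every alternative run. Heat shock genes were higher in 13 of 16, with a median of 0.55, against 0.41 in other wells. Hspb1, a small heat shock protein, had 837, 954 and 2848 CPM in endothelial-marker wells, and 712, 890 and 2044 CPM in other wells. Cryab, another small heat shock protein of muscle, had 2245, 2589 and 4982 CPM, and 2409, 2513 and 4239 CPM in other wells. Antioxidant genes were higher in 12 of 17, with 0.78, against 0.25. Tip cell and angiogenic genes were higher in 8 of 9, with 0.76, against 0.42. Col4a2 had 50.8, 70.9 and 126 CPM in endothelial-marker wells, and 38.3, 57.2 and 77.0 CPM in other wells. The mesenchymal transition list was higher in 10 of 11, with 1.20, against 1.10. N-cadherin (Cdh2), which cardiomyocytes also express, had 10.9, 38.5 and 74.9 CPM, and 12.7, 30.3 and 91.8 CPM in other wells. In each of these lists the median in other wells lay on the same side.

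**Figure D5:**
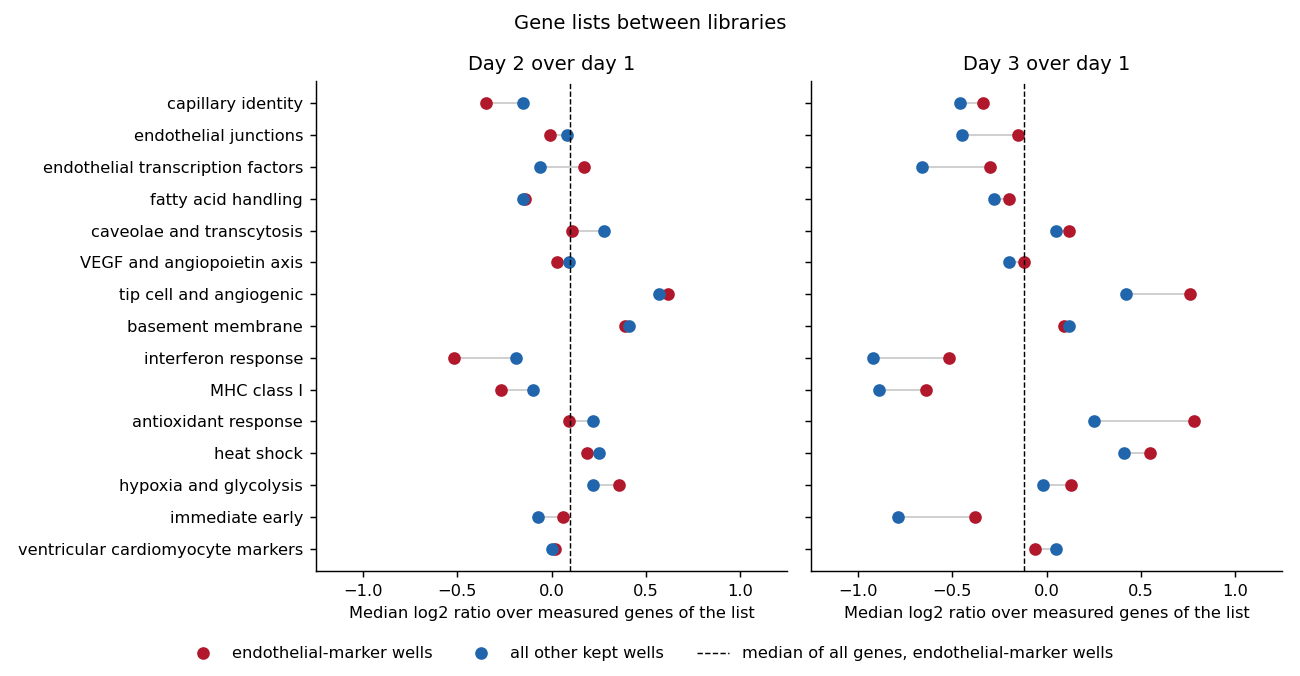
Median log2 ratio over the measured genes of each list (horizontal axis), day 2 over day 1 (left) and day 3 over day 1 (right), in endothelial-marker wells and all other kept wells, with a dashed line at the median of all genes in endothelial-marker wells (0.10 and −0.12). Capillary identity and interferon response lie left of the line on both days (−0.35 and −0.34, −0.52 and −0.52) and tip cell genes right of it (0.62 and 0.76).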

How the data were processed

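The authors deposited 1 table of raw counts per library, whole-number read counts per gene and well barcode with no normalization. Reads were handled with cutadapt, STAR and featureCounts on mm10, per the submitters' processing notes; their versions, the annotation and any use of strand were not given in the sources used here. Reads carry no molecular identifiers, so counts include amplification copies. Identifiers were matched to GENCODE M21, with 55141 of 55401 mouse identifiers paired to a symbol. Of 104 named and rule genes, 26 have exons that overlap another gene.

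CPM was computed with Python 3.11.15, NumPy 2.4.6, SciPy 1.17.1 and pandas 2.3.3 over nuclear-encoded mouse genes, on counts summed over the wells of a class. Ratios between days use a floor of 3 counts, ranks and class ratios add 5 CPM, and intervals are 95% exact (Clopper-Pearson, Poisson, binomial split). They cover counting error only. The code was tested on simulated data. Doublets were not called: wells were selected by imaging, per the labels' protocols, and whether a well held more than 1 cell was not tested.

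Named genes were the 20 leading genes and, for each day comparison, the 12 highest and 12 lowest genes of mean CPM 20 or more with a count in at least 10% of wells, plus the 10 highest and 10 lowest among those 2-fold above other wells; 1 of them is not reported here. No more than 25% of the counts of the higher library came from 1 well. The wells, gene lists and rules were chosen with earlier results of these data known. With 1 library per day no test was made.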

Additional observations from a re-analysis of the deposited data

How the results depend on the processing

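No paired analysis was possible because each day is 1 library and no result comes from a test. Shares of kept wells on days 1, 2 and 3 (23.5%, 22.8%, 20.4%) became 36.0%, 33.4% and 32.0% with 4 rule genes asked for, 6.45%, 5.29% and 4.95% with 7, and 15.0%, 14.5% and 11.7% at 50 CPM.

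Genes 4-fold above other wells (5, 5 and 16) numbered 10 and 11 on days 1 and 2 with 4 rule genes, 60, 64 and 72 with 7, and 8, 13 and 27 at 50 CPM. They numbered 1 and 2 on days 1 and 2 with mitochondrial genes in the total and 3 and 2 for genes of 50 CPM or more. On day 2 they were 1 with equal weight per well and 1 with wells thinned. Against wells of at most 2 rule genes they were 69, 54 and 54. With only wells under 100 CPM of haemoglobin, chosen after seeing the data, they were 53 on day 2 and 28 on day 3.

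For day 2 over day 1 (503 higher, 249 lower), 7 rule genes gave 1145 and 942, genes of mean CPM 1 or more 1761 and 1485, and low-haemoglobin wells 821 and 576. Lower genes alone moved to 164 with 4 rule genes, 442 at 50 CPM and 119 with mitochondrial genes in the total. For day 3 over day 1 (467 and 578), 7 rule genes gave 1098 and 1120, mitochondrial genes in the total 775 and 141, and mean CPM 1 or more 1807 and 2161. With 7 rule genes (79, 56 and 54 wells), Gpalpp1 (−1.62), Ablim3 (−0.76), Ano6 (0.31), Jcad (0.04) and Entpd1 (0.29) had the other sign on day 2. The cause of these differences was not tested, but 7 rule genes and low haemoglobin leave fewer wells. Leading genes kept their side in 200 of 200 alternative values. They were chosen for a high ratio in these same wells, which favours this, so nothing is read from it. Wells of 20 to 30% mitochondrial counts gave no value, since fewer than 50 were members on day 1. Libraries have no replicates to leave out. Depth limits every statement on a single well, where 20 CPM is a few reads.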

Other observations

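The deposited tables also list 2 added sequences by name. EGFP had 25 counts in endothelial-marker wells on day 1, 47 on day 2 and 222 on day 3, of 744, 627 and 539 counts over all kept wells, and was detected in 14, 8 and 10 endothelial-marker wells. The 3xFlag sequence had 5, 3 and 1 counts in endothelial-marker wells, of 19, 19 and 23 counts in all kept wells.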
